A study of Homo sapiens with 16 samples.

Results

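The 51 genes described here are targets of p53 that lie outside its main cell cycle arrest, apoptosis and metabolism genes. They were taken as a list of names, chosen with earlier results of these data known. All 51 were found among the 28685 genes shared by both experiments of the study. Of these, 50 had enough counts to be tested for the 5-FU responses among 16430 tested genes, and SPATA18, a mitochondrial quality control gene, did not. The list holds 10 genes of cell death, mitochondria and survival, 5 enzymes of lipids, cofactors and small molecules, 12 genes of RNA, transcription and genome upkeep, 3 of ubiquitin ligation and protein folding, 9 of small GTPase, phosphatase and other signalling, 8 of membrane traffic, transport and secretion, and 4 of immune recognition.

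p53 is a transcription factor that binds a DNA element made of decamers and switches on genes after DNA damage and other stress. Its level is held low by MDM2, a ubiquitin ligase that is itself a p53 target, so that damage raises both proteins in a feedback loop. Beyond well known targets such as CDKN1A, which stops the cell cycle, p53 is known to act on genes of ceramide breakdown, RNA stability, protein ubiquitination, membrane traffic and calcium entry. 5-fluorouracil (5-FU) is a pyrimidine analogue that disturbs RNA and DNA synthesis and activates p53.

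RNA sequencing was done on U2OS, an osteosarcoma line of human origin whose p53 is intact, in which the MDM2 W329G change had been made with CRISPR/Cas9, beside isogenic wild-type (WT) cells. The groups were MDM2 W329G cells with 5-FU, MDM2 W329G cells with DMSO, WT cells with 5-FU and WT cells with DMSO, and each held 4 libraries. 5-FU was given at 50 µM for 24 h, and DMSO, its solvent, for the same 24 h. Each genotype was represented by 2 cultures numbered as cells 1 and cells 2, in 2 experiments that different vendors sequenced. The 4 values given for a group run from replicate 1 to 4, which stand for cells 1 and then cells 2 in experiment 1, followed by cells 1 and then cells 2 in experiment 2. The labels do not say whether a line is a single clone or whether the WT lines went through editing, so a genotype here means 2 lines.

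Libraries held 24715999 to 56877328 counts, and mitochondrial transcripts took 7.14% to 31.8% of the joined counts, with the lowest share in W329G cells 1 of experiment 1. Markers of bone and connective tissue cells summed to 6267 to 15563 CPM (counts scaled to library size) and blood markers to 0.717 to 1.83 CPM, with no blood marker averaging 1 CPM. Epithelial markers summed to 139 to 731 CPM, with 6 of 6 averaging at least 1 CPM in each group, and neural markers to 34.4 to 212 CPM, with 4 of 6, and the ranges of both overlapped among the 4 groups. Counts cannot show the edited codon. MDM2 itself averaged 75.2 ± 19.4 CPM in W329G cells under 5-FU, against 72.8 ± 31.8 CPM under DMSO, and 229 ± 42.5 CPM in WT cells under 5-FU, against 60.9 ± 18.4 CPM under DMSO (SD, n = 4 each). Within an experiment, the difference between cells 1 and cells 2 across 11341 genes was alike under 5-FU and DMSO (r = 0.69 to 0.81). Whether the line or its culture in that experiment gave this was not tested. Between experiments the difference ran the opposite way, with r = -0.73 under 5-FU and -0.65 under DMSO for W329G and -0.42 and -0.24 for WT. By this measure cells 1 of one experiment looked more like cells 2 of the other, and the cause was not tested. Comparisons of the genotypes rest on counts summed by these numbers, and are therefore given with the numbers of experiment 2 exchanged as well.

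The members rose with 5-FU mainly in WT cells. A gene was called when its adjusted p was under 0.05 over all tested genes. AEN alone of the 50 members was called higher in W329G cells, where 0.195% of all genes were called higher and 0.59% lower. It was not called once any single pair of W329G libraries was left out. A fit that pairs the libraries, given below, called 7 members higher and 2 lower there, with 5.14% and 5.79% of all genes. In WT cells 35 members rose and TNFAIP8 fell, where 3.56% of all genes rose and 5.22% fell, 8.78% together. The members' median log2 fold change was 0.06 in W329G cells and 0.83 in WT cells, against 0.02 and 0.01 for all tested genes. Without the WT pair of replicate 1 the calls in WT numbered 19, with 4.53% of all genes called, and without that of replicate 2 they numbered 20, with 3.99% called. In single libraries, 27 of 50 members had every WT 5-FU library above every WT DMSO library, where 3.45% of all genes did. Of the 36 members called in WT, 18 kept the call whichever WT pair was left out. The same share of all called genes was not counted.

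The 2 responses differed by test for 9 members, ACER2, FBXW7, ORAI3, SERTAD1, SUSD6, TM7SF3, TP53I3, TRIAP1 and ZMAT3, and all 9 responses were lower in W329G cells. Across all genes 0.511% had a response called lower and 0.694% one called higher in W329G cells, 1.21% together. TM7SF3, TP53I3 and ZMAT3 kept the call in all 8 fits without a pair of libraries, which was not counted for all genes. The count was 5 without W329G replicate 1, 6 without replicate 2 and 5 without replicate 3, and it was 5 without WT replicate 1 and 3 without WT replicate 2, with 0.524% to 0.681% of all genes called in these fits. A fit that set each 5-FU library against the DMSO library of the same line and experiment, the replicate block, called 27 members lower in W329G cells, with 2.54% of all genes called lower and 3.6% higher, 6.15% together. That fit called 7 members higher and 2 lower in W329G cells, with 5.14% of all genes called higher and 5.79% lower, and 42 higher and 1 lower in WT cells, with 11.6% and 13.1% of all genes.

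**Figure D1:**
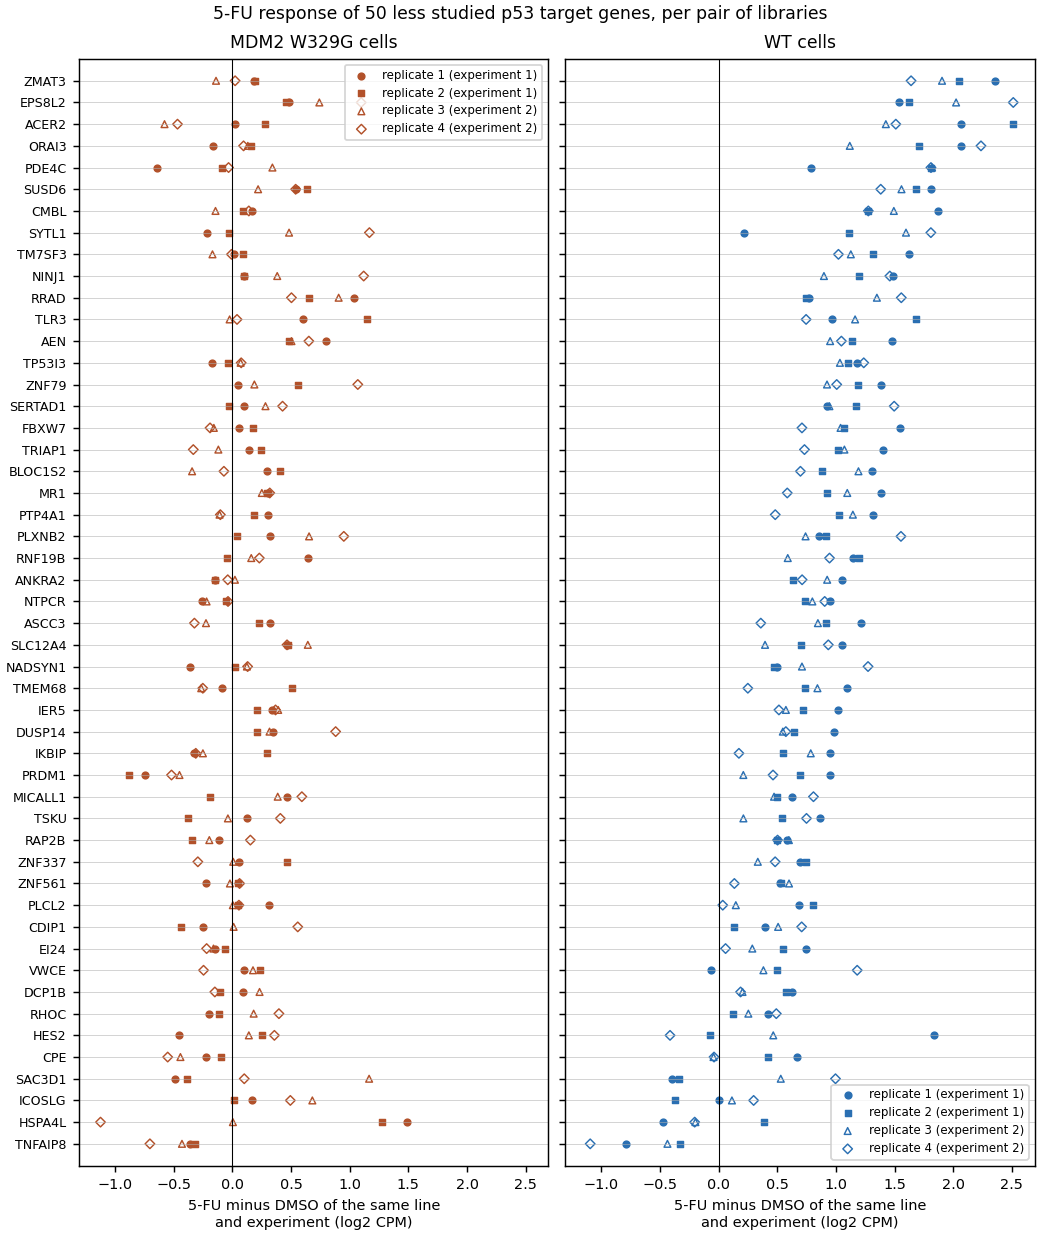
Each row is a member and each symbol the log2 CPM difference of 5-FU minus DMSO in the libraries of 1 line and experiment, for W329G cells on the left and WT cells on the right. In single pairs 30 to 32 of 50 members lie above 0 in W329G cells and 46 to 47 in WT cells. Of all tested genes, 48.5% to 51.4% lie above 0 in a pair.

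The plot of responses by pair separates the lines and experiments. The members' median in the 4 W329G pairs was 0.09, 0.10, 0.05 and 0.09 on the log2 scale, and in the 4 WT pairs it was 0.96, 0.74, 0.79 and 0.74. The medians of all tested genes lay between 0 and 0.01 in the 8 pairs. For 26 members every W329G pair lay below every WT pair, where 5.92% of all genes did so and 7.11% lay the other way round. A total of 47 members had a smaller log2 fold change in W329G than in WT cells, where 48.6% of all genes did.

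Promoter windows of the members, which can have several annotated starts, were read from RefSeq (GRCh38.p14, 250 bases before to 50 after a gene's start), which gave 76 windows for 46 members and none for ASCC3, CMBL, RNF19B, RRAD and TMEM68. The p53 decamer consensus, the repeat unit of a p53 element, reads the same on both strands and was searched by exact match. It was present in 9 of the 76 windows (11.8%) and in 6.63% of all 35116 windows of the table. The form with CATG at its centre was in 5 of the 76 (6.58%) and in 1.57% of all. A pair of decamers no more than 13 bases apart, as in a full element, was in 0 of the 76 and in 0.0285% of all windows, and a window without a match says only that these letters are not in it. The matches are shown because they lie beside an annotated start of members whose response is given below, with the decamer in capitals, read 5′ to 3′ on the gene's strand.

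For PDE4C, a cyclic AMP phosphodiesterase gene that rose in WT cells, 1 of 4 windows held 4 decamers, another held 1 and the other two held none. The 4 decamers lay within 131 bases on the minus strand of chr19:18224570-18224700, at a start inside the gene, which begins at 18255419.
PDE4C: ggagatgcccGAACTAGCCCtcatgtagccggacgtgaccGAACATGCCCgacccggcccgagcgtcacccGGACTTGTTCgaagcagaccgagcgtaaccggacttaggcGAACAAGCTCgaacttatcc

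Single decamers stood in a window of AEN (chr15:88621296-88621325, plus strand, within the annotated exon), EPS8L2 (chr11:720505-720534, plus, at a start inside the gene), RAP2B (chr3:153162155-153162184, plus), MR1 (chr1:181033306-181033335, plus) and SLC12A4 (chr16:67964102-67964131, minus), which all rose in WT cells. HSPA4L (chr4:127783499-127783522, plus) is shown beside them as a member that holds a decamer and was called in no comparison. These windows are the single ones of AEN and RAP2B, 1 of 2 of EPS8L2 and MR1, 1 of 3 of HSPA4L and 1 of 4 of SLC12A4, and the others held no decamer. The shown windows of SLC12A4 and HSPA4L also lie at a start inside the gene. The window of EI24, not shown, held a decamer too. The windows of all other members held none, among them those of the 9 members whose response was called lower in W329G cells. Whether p53 acts through the shown decamers was not tested.
AEN: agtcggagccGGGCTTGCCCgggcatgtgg
EPS8L2: cctgtgctccAGGCTTGTCCacagctccgg
RAP2B: ggaacgcactGGGCATGCTCgccggggagg
MR1: ctagctccctGGACAAGCTTaagctgctgt
SLC12A4: ccacggcctgGGGCTTGCCCcacctcccgg
HSPA4L: tatgtcatggAAACATGTTTccac

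Among the 9 tested genes of cell death, mitochondria and survival, AEN rose in W329G cells, and 7 rose and TNFAIP8 fell in WT cells. The role's median log2 fold change was -0.03 in W329G and 1.05 in WT cells. TM7SF3, TP53I3 and TRIAP1 had a response called lower in W329G cells, and with the replicate block 7 of the 9 did.

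TM7SF3 (GRCh38 chromosome 12, 26973195 to 27014434) encodes a multipass membrane protein linked to survival under endoplasmic reticulum stress. TM7SF3 had 121, 143, 109.7 and 95.9 CPM in W329G cells under 5-FU, against 120.5, 134, 123 and 96.5 CPM under DMSO. In WT cells TM7SF3 had 432, 282, 265 and 290.1 CPM under 5-FU, against 140.1, 113, 121 and 143 CPM under DMSO. All 4 WT libraries under 5-FU lay above the 12 others, and the W329G libraries overlapped between treatments. The log2 fold change with 5-FU was -0.02 ± 0.15 (SE, adjusted p = 0.979) in W329G cells and 1.28 ± 0.15 (SE, adjusted p = 8.11e-05) in WT cells. The W329G minus WT difference of the responses was -1.30 ± 0.21 (SE, adjusted p = 0.00513), being -1.45 in experiment 1 alone and -1.18 in experiment 2 alone.

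TP53I3 (chromosome 2, 24077433 to 24085861) encodes PIG3, a quinone reductase-like enzyme linked to oxidative stress. TP53I3 had 72.8, 68.8, 62.1 and 47.5 CPM in W329G cells under 5-FU, against 82.4, 70.5, 59.1 and 45.1 CPM under DMSO. In WT cells TP53I3 had 175, 146, 106 and 117 CPM under 5-FU, against 77.2, 67.9, 51.5 and 49.6 CPM under DMSO. The WT 5-FU libraries again lay above all others, and those of experiment 2 were the lower ones. Its response was -0.02 ± 0.12 (SE, adjusted p = 0.974) in W329G cells and 1.14 ± 0.12 (SE, adjusted p = 2.87e-05) in WT cells, on the log2 scale. The difference of the responses was -1.16 ± 0.17 (SE, adjusted p = 0.00218), being -1.26 in experiment 1 alone and -1.08 in experiment 2 alone.

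TRIAP1 (chromosome 12, 120443961 to 120446412) encodes a small mitochondrial protein that carries phospholipids and holds back apoptosis. TRIAP1 had 39.4, 35.6, 18.02 and 21.8 CPM in W329G cells under 5-FU, against 35.8, 30.1, 19.6 and 27.5 CPM under DMSO. In WT cells TRIAP1 had 79.8, 82.1, 35.9 and 38.4 CPM under 5-FU, against 30.2, 40.5, 17.1 and 23.1 CPM under DMSO. Levels in experiment 2 were lower in every group, so the WT groups overlapped across experiments while each WT pair rose. The log2 response was -0.03 ± 0.16 (SE, adjusted p = 0.965) in W329G cells and 1.05 ± 0.16 (SE, adjusted p = 0.000708) in WT cells, with a difference of -1.08 ± 0.23 (SE, adjusted p = 0.0256), being -1.01 in experiment 1 alone and -1.14 in experiment 2 alone.

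AEN (chromosome 15, 88621296 to 88632282), an exonuclease gene linked to apoptosis, was the member called higher in W329G cells without the replicate block. AEN had 90.4, 62.999, 51.5 and 62.99 CPM in W329G cells under 5-FU, against 52.1, 44.97, 36.3 and 40.1 CPM under DMSO. In WT cells AEN had 167, 147, 121 and 104 CPM under 5-FU, against 59.99, 66.9, 62.4 and 50.2 CPM under DMSO. All 4 pairs of each genotype rose, and the W329G groups overlapped only through the DMSO library of cells 1 in experiment 1. The log2 response was 0.62 ± 0.13 (SE, adjusted p = 0.0399) in W329G cells and 1.15 ± 0.13 (SE, adjusted p = 7.38e-05) in WT cells. Their difference of -0.53 ± 0.19 (SE, adjusted p = 0.285) was not called, and the replicate block called it, at -0.54.

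NINJ1 encodes ninjurin 1, a surface protein that ruptures the plasma membrane of dying cells. NINJ1 had 53.5, 46.1, 39.8 and 38.9 CPM in W329G cells under 5-FU, against 49.99, 43.01, 30.6 and 17.9 CPM under DMSO. In WT cells NINJ1 had 109, 95.1, 73.4 and 64.4 CPM under 5-FU, against 39.04, 41.5, 39.4 and 23.4 CPM under DMSO. Its lowest WT DMSO library, replicate 4, stood well below the other 3. The WT 5-FU libraries lay above all others. The response was 0.39 ± 0.19 (SE, adjusted p = 0.394) in W329G cells and 1.23 ± 0.19 (SE, adjusted p = 0.00066) in WT cells, and the difference of -0.85 ± 0.26 (SE, adjusted p = 0.187) was called with the replicate block alone, at -0.84.

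IKBIP, whose protein binds an IkB kinase, and EI24, an endoplasmic reticulum protein of autophagy, rose less. IKBIP had 58.2, 78.5, 46.2 and 46.2 CPM in W329G cells under 5-FU, against 72.8, 64.1, 54.996 and 57.3 CPM under DMSO. In WT cells IKBIP had 110.3, 88.8, 68.98 and 64.8 CPM under 5-FU, against 57.1, 60.7, 40.01 and 57.5 CPM under DMSO. The log2 response of IKBIP was -0.14 ± 0.14 (SE, adjusted p = 0.711) in W329G cells and 0.61 ± 0.14 (SE, adjusted p = 0.0107) in WT cells. EI24 had 83.3, 85.7, 74.5 and 78.7 CPM in W329G cells under 5-FU, against 92.2, 89.4, 83.3 and 91.7 CPM under DMSO. In WT cells EI24 had 142, 148, 103 and 101 CPM under 5-FU, against 84.7, 101, 84.05 and 96.6 CPM under DMSO. The EI24 levels under 5-FU were lower in all W329G libraries than in the WT libraries, and the WT log2 response was 0.65 in experiment 1 and 0.17 in experiment 2. Its response was -0.15 ± 0.11 (SE, adjusted p = 0.622) in W329G cells and 0.41 ± 0.11 (SE, adjusted p = 0.0307) in WT cells. With the replicate block the W329G minus WT difference of the responses was called for both genes, at -0.76 for IKBIP and -0.56 for EI24.

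SPATA18 ranged from 0 to 0.614 CPM and was called in no comparison. CDIP1, a membrane protein gene named for p53-induced cell death, was called between the genotypes under 5-FU and in neither response. CDIP1 had 24.7, 26.5, 22.9 and 16.6 CPM in W329G cells under 5-FU, against 29.4, 35.9, 22.8 and 11.2 CPM under DMSO. In WT cells CDIP1 had 45.8, 52.9, 52.5 and 33.7 CPM under 5-FU, against 34.9, 48.4, 36.9 and 20.6 CPM under DMSO. Every W329G library under 5-FU was below every WT library under 5-FU. The response was -0.08 ± 0.24 (SE, adjusted p = 0.935) in W329G cells and 0.42 ± 0.24 (SE, adjusted p = 0.341) in WT cells, and the replicate block called it in WT cells, at 0.43. TNFAIP8, which encodes a suppressor of apoptosis, was the member that fell in WT cells. It averaged 8.82 ± 1.87 CPM in W329G cells under 5-FU, against 12.1 ± 2.43 CPM under DMSO, and 6.93 ± 0.810 CPM in WT cells under 5-FU, against 11.1 ± 2.31 CPM under DMSO (SD, n = 4 each). Its log2 fold change was -0.46 ± 0.19 (SE, adjusted p = 0.304) in W329G cells, where the replicate block called it at -0.46, and -0.69 ± 0.19 (SE, adjusted p = 0.0352) in WT cells.

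**Figure D2:**
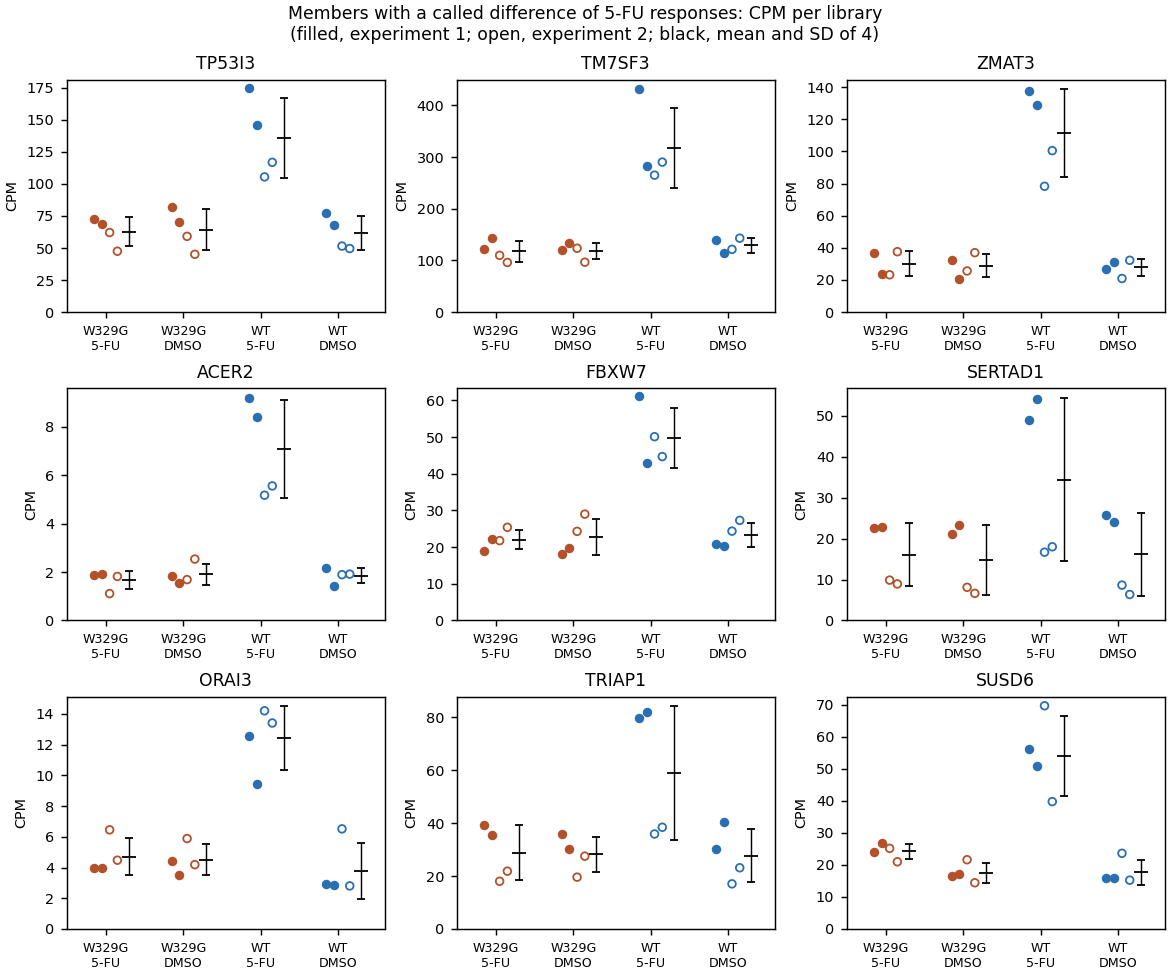
CPM per library (vertical axis) of the 9 members whose 5-FU response was called lower in W329G than in WT cells, by group, with experiment 1 filled, experiment 2 open and black bars for the mean and SD of 4. The WT 5-FU libraries stand above the other groups within each experiment. Over both experiments the W329G 5-FU libraries overlap the DMSO libraries. Within an experiment they lie above the DMSO libraries for SUSD6 in experiment 1 and SERTAD1 in experiment 2.

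The 5 enzymes of lipids, cofactors and small molecules had log2 fold changes between -0.20 and 0.04 with 5-FU in W329G cells, and all 5 rose in WT cells, with a median of 0.84. ACER2 had a response called lower in W329G cells, and with the replicate block all 5 did.

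ACER2 (chromosome 9, 19409059 to 19452020) encodes a Golgi ceramidase that releases sphingosine from ceramide. ACER2 had 1.87, 1.91, 1.11 and 1.82 CPM in W329G cells under 5-FU, against 1.84, 1.56, 1.69 and 2.54 CPM under DMSO. In WT cells ACER2 had 9.19, 8.42, 5.18 and 5.56 CPM under 5-FU, against 2.15, 1.43, 1.89 and 1.92 CPM under DMSO. The WT 5-FU libraries lay above the 12 others. The log2 response was -0.20 ± 0.26 (SE, adjusted p = 0.81) in W329G cells and 1.91 ± 0.27 (SE, adjusted p = 0.000312) in WT cells, a 3.76-fold rise. The difference of -2.11 ± 0.37 (SE, adjusted p = 0.00868) was the widest of the 9, being -2.16 in experiment 1 alone and -2.03 in experiment 2 alone.

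CMBL encodes a hydrolase that activates ester prodrugs, and NADSYN1 the last enzyme of NAD synthesis from nicotinic acid. CMBL had 15.99, 23.6, 13.3 and 7.63 CPM in W329G cells under 5-FU, against 14.2, 22.1, 14.7 and 6.92 CPM under DMSO. In WT cells CMBL had 52.5, 60.01, 36.2 and 29.8 CPM under 5-FU, against 14.3, 24.7, 12.8 and 12.3 CPM under DMSO. Here WT cells 2 of experiment 1 stood above the other DMSO libraries and still rose. The response of CMBL was 0.04 ± 0.25 (SE, adjusted p = 0.973) in W329G cells and 1.46 ± 0.25 (SE, adjusted p = 0.00168) in WT cells, and the difference of -1.42 ± 0.35 (SE, adjusted p = 0.0646) was called with the replicate block alone, at -1.42. NADSYN1 had 17.6, 33.3, 69.4 and 45.05 CPM in W329G cells under 5-FU, against 22.5, 32.7, 63.7 and 41.2 CPM under DMSO. In WT cells NADSYN1 had 41.5, 45.3, 90.2 and 111 CPM under 5-FU, against 29.4, 32.6, 55.1 and 45.7 CPM under DMSO. NADSYN1 counts were higher in experiment 2 in all groups. Its response was 0.01 ± 0.21 (SE, adjusted p = 0.996) in W329G cells and 0.74 ± 0.21 (SE, adjusted p = 0.0419) in WT cells. NTPCR, a nucleoside triphosphatase gene, had a response of -0.15 in W329G cells and 0.84 ± 0.23 (SE, adjusted p = 0.0338) in WT cells. TMEM68, which encodes an acyltransferase-like membrane protein, had -0.03 in W329G cells and 0.72 ± 0.15 (SE, adjusted p = 0.00779) in WT cells. The replicate block put the differences of NADSYN1, NTPCR and TMEM68 at -0.76, -0.99 and -0.76.

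Of 12 genes of RNA, transcription and genome upkeep, 7 rose in WT cells, and the median log2 fold change was 0.06 in W329G cells and 0.65 in WT cells. ZMAT3 and SERTAD1 had a response called lower in W329G cells.

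ZMAT3 (chromosome 3, 179017223 to 179072279) encodes a zinc finger protein that binds RNA and shapes its splicing and stability. ZMAT3 had 36.7, 23.4, 23.2 and 37.6 CPM in W329G cells under 5-FU, against 32.3, 20.5, 25.6 and 36.98 CPM under DMSO. In WT cells ZMAT3 had 138, 129, 78.3 and 101 CPM under 5-FU, against 26.95, 31.2, 20.9 and 32.2 CPM under DMSO. It had the largest WT log2 fold change of the 50 members, and its 4 W329G libraries under 5-FU overlapped those under DMSO. The response was 0.06 ± 0.23 (SE, adjusted p = 0.951) in W329G cells and 1.99 ± 0.24 (SE, adjusted p = 8.25e-05) in WT cells, a 3.98-fold rise. The difference was -1.93 ± 0.33 (SE, adjusted p = 0.00706), being -2.02 in experiment 1 alone and -1.81 in experiment 2 alone.

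SERTAD1 (chromosome 19, 40421592 to 40426025) encodes a transcription cofactor that also binds CDK4. SERTAD1 had 22.6, 22.9, 9.86 and 8.93 CPM in W329G cells under 5-FU, against 21.03, 23.3, 8.10 and 6.62 CPM under DMSO. In WT cells SERTAD1 had 48.9, 54.2, 16.7 and 18.004 CPM under 5-FU, against 25.7, 23.99, 8.64 and 6.35 CPM under DMSO. Its level in experiment 2 was 0.372 times that in experiment 1 at the median of all libraries, so WT groups overlapped across experiments. Within each experiment the WT 5-FU libraries were the highest. The response was 0.20 ± 0.13 (SE, adjusted p = 0.567) in W329G cells and 1.13 ± 0.13 (SE, adjusted p = 7.38e-05) in WT cells, with a difference of -0.93 ± 0.18 (SE, adjusted p = 0.0186), being -1.02 in experiment 1 alone and -0.87 in experiment 2 alone.

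PRDM1 (chromosome 6, 106086320 to 106109939) encodes BLIMP-1, a transcriptional repressor known from B cell differentiation. PRDM1 had 6.05, 4.51, 5.04 and 11.2 CPM in W329G cells under 5-FU, against 10.2, 8.35, 6.91 and 16.1 CPM under DMSO. In WT cells PRDM1 had 30.7, 20.4, 21.9 and 27.5 CPM under 5-FU, against 15.8, 12.6, 18.9 and 19.96 CPM under DMSO. All 4 W329G pairs lay below 0 and all 4 WT pairs above 0. The log2 response was -0.64 ± 0.28 (SE, adjusted p = 0.324) in W329G cells and 0.60 ± 0.27 (SE, adjusted p = 0.201) in WT cells, and the difference was -1.25 ± 0.39 (SE, adjusted p = 0.186). These were not called, while the replicate block called all 3, at -0.65, 0.57 and -1.22. Under 5-FU the W329G libraries were all below the WT libraries.

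ASCC3 encodes a helicase of alkylation repair and ribosome quality control, ANKRA2 an ankyrin repeat protein, and IER5 an immediate early gene product that acts on heat shock factor. ASCC3 had 63.97, 55.5, 47.1 and 52.8 CPM in W329G cells under 5-FU, against 51.1, 47.3, 55.1 and 66.05 CPM under DMSO. In WT cells ASCC3 had 88.2, 98.5, 96.8 and 80.6 CPM under 5-FU, against 38.1, 52.2, 53.8 and 62.8 CPM under DMSO. The WT 5-FU libraries of ASCC3 lay above all others. ANKRA2 had 6.43, 7.08, 7.66 and 7.28 CPM in W329G cells under 5-FU, against 7.12, 7.86, 7.55 and 7.48 CPM under DMSO. In WT cells ANKRA2 had 16.3, 9.80, 13.7 and 12.3 CPM under 5-FU, against 7.86, 6.29, 7.17 and 7.49 CPM under DMSO. The same held for ANKRA2, whose W329G values stayed within 6.43 to 7.86 CPM in all 8 libraries. IER5 had 89.4, 89.7, 60.8 and 60.1 CPM in W329G cells under 5-FU, against 70.8, 77.6, 46.3 and 46.5 CPM under DMSO. In WT cells IER5 had 118, 133, 94.8 and 74.8 CPM under 5-FU, against 58.2, 81.03, 63.7 and 52.4 CPM under DMSO. All 8 pairs of IER5 were higher under 5-FU. In W329G cells the log2 responses were 0.01 for ASCC3, -0.08 for ANKRA2 and 0.32 for IER5. In WT cells they were 0.82 ± 0.15 (SE, adjusted p = 0.00285) for ASCC3, 0.86 ± 0.16 (SE, adjusted p = 0.00293) for ANKRA2 and 0.69 ± 0.13 (SE, adjusted p = 0.00297) for IER5. The replicate block called IER5 higher in W329G cells, at 0.33, and the differences of ASCC3 and ANKRA2, at -0.83 and -0.91.

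ZNF337, a zinc finger gene, had a log2 response of 0.05 in W329G cells and 0.54 ± 0.14 (SE, adjusted p = 0.0269) in WT cells. ZNF561, another, had -0.04 in W329G cells and 0.44 ± 0.13 (SE, adjusted p = 0.0438) in WT cells. The 4 members of this role that were called in no comparison were DCP1B, a decapping cofactor gene, the zinc finger gene ZNF79, HES2, a repressor of the Hairy family, and SAC3D1, a centrosome protein gene. DCP1B ranged from 14.98 to 35.4 CPM over the 16 libraries and ZNF79 from 1.97 to 6.74 CPM, and the replicate block called both higher in WT cells, at 0.39 for DCP1B and 1.13 for ZNF79. HES2 ranged from 0.0253 to 0.523 CPM and SAC3D1 from 2.69 to 22.8 CPM, with WT responses of 0.33 ± 0.64 and 0.17 ± 0.27. The WT responses of SAC3D1 differed in sign by experiment, at -0.37 in experiment 1 and 0.76 in experiment 2.

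FBXW7 and RNF19B, both ubiquitin ligase genes, rose in WT cells, and HSPA4L, a chaperone gene, was called in no comparison. The median log2 fold change of these 3 genes was 0.24 in W329G cells and 0.95 in WT cells. FBXW7 (chromosome 4, 152321259 to 152536101) encodes the subunit that brings cyclin E, MYC and other substrates to an SCF ligase. FBXW7 had 18.8, 22.3, 21.8 and 25.4 CPM in W329G cells under 5-FU, against 18.1, 19.8, 24.3 and 29.002 CPM under DMSO. In WT cells FBXW7 had 61.1, 42.9, 50.1 and 44.7 CPM under 5-FU, against 20.9, 20.4, 24.4 and 27.3 CPM under DMSO. The WT 5-FU libraries lay above the 12 others. The response was -0.04 ± 0.15 (SE, adjusted p = 0.956) in W329G cells and 1.11 ± 0.15 (SE, adjusted p = 0.000213) in WT cells, with a difference of -1.15 ± 0.21 (SE, adjusted p = 0.011), being -1.22 in experiment 1 alone and -1.07 in experiment 2 alone.

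RNF19B encodes a RING-type ligase known from natural killer cells. RNF19B had 17.3, 15.3, 13.99 and 15.4 CPM in W329G cells under 5-FU, against 11.1, 15.8, 12.5 and 13.1 CPM under DMSO. In WT cells RNF19B had 19.6, 30.2, 22.4 and 15.2 CPM under 5-FU, against 8.83, 13.2, 14.9 and 7.86 CPM under DMSO. Each WT pair rose, and the lowest WT 5-FU library lay barely above the highest WT DMSO library. The response was 0.24 ± 0.22 (SE, adjusted p = 0.701) in W329G cells and 0.95 ± 0.22 (SE, adjusted p = 0.0126) in WT cells, and the replicate block called the difference of -0.71 ± 0.31 (SE, adjusted p = 0.464), at -0.72. HSPA4L ranged from 0.241 to 0.939 CPM, with log2 responses of 0.37 ± 0.46 in W329G cells and -0.17 ± 0.45 in WT cells.

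Among the 9 signalling genes 6 rose in WT cells, and the median log2 fold change was 0.11 in W329G cells and 0.97 in WT cells. With the replicate block 4 of these genes had a response called lower in W329G cells.

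EPS8L2 (chromosome 11, 694438 to 727727) encodes an actin regulator of the EPS8 family. EPS8L2 had 17.9, 24.9, 38.6 and 22.6 CPM in W329G cells under 5-FU, against 12.8, 18.1, 23.1 and 10.5 CPM under DMSO. In WT cells EPS8L2 had 63.9, 59.3, 122 and 113 CPM under 5-FU, against 21.97, 19.2, 30.1 and 19.8 CPM under DMSO. All 8 pairs were higher under 5-FU, and the WT 5-FU libraries lay above all others. The response was 0.66 ± 0.25 (SE, adjusted p = 0.265) in W329G cells, where the replicate block called it at 0.69, and 1.93 ± 0.26 (SE, adjusted p = 0.00022) in WT cells, a 3.81-fold rise. The difference of -1.27 ± 0.35 (SE, adjusted p = 0.118) was called with the replicate block alone, at -1.24.

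PTP4A1, a phosphatase gene also known as PRL-1, PLXNB2, which encodes a semaphorin receptor, and RAP2B, a small GTPase gene, also rose in WT cells. PTP4A1 had 185, 151, 96.1 and 126 CPM in W329G cells under 5-FU, against 149.6, 133, 104 and 135 CPM under DMSO. In WT cells PTP4A1 had 330.1, 339, 201 and 194 CPM under 5-FU, against 133, 167, 90.8 and 138 CPM under DMSO. PTP4A1 was higher in every WT 5-FU library than in any other library. PLXNB2 had 375, 459, 494 and 320.3 CPM in W329G cells under 5-FU, against 300.2, 448, 314 and 166 CPM under DMSO. In WT cells PLXNB2 had 710.0, 767, 739 and 607 CPM under 5-FU, against 393, 406, 442 and 207 CPM under DMSO. The PLXNB2 libraries under 5-FU were all lower in W329G than in WT cells. RAP2B had 77.3, 62.7, 53.4 and 74.9 CPM in W329G cells under 5-FU, against 83.5, 79.4, 61.2 and 67.3 CPM under DMSO. In WT cells RAP2B had 139, 149, 120.2 and 129 CPM under 5-FU, against 92.8, 105, 79.3 and 91.03 CPM under DMSO. RAP2B was also lower in W329G than in WT libraries under 5-FU, and under DMSO the genotypes overlapped through WT replicate 3. In W329G cells the responses were 0.07 for PTP4A1, 0.45 for PLXNB2 and -0.11 for RAP2B. In WT cells they were 0.98 ± 0.16 (SE, adjusted p = 0.00124) for PTP4A1, 0.97 ± 0.25 (SE, adjusted p = 0.0222) for PLXNB2 and 0.54 ± 0.12 (SE, adjusted p = 0.00808) for RAP2B. The replicate block called the differences of PTP4A1 and RAP2B, at -0.92 and -0.67.

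PDE4C, a window of which is shown above, stayed low, from 0.343 to 2.90 CPM over the 16 libraries. It had a log2 response of -0.07 ± 0.36 (SE, adjusted p = 0.966) in W329G cells and 1.64 ± 0.37 (SE, adjusted p = 0.0107) in WT cells, and the replicate block called the difference of -1.71 ± 0.51 (SE, adjusted p = 0.159), at -1.77. RRAD, a GTPase gene of the RGK family, had 0.83 ± 0.34 (SE, adjusted p = 0.305) in W329G cells, the largest log2 fold change of the 50 members there and not called, and 1.18 ± 0.34 (SE, adjusted p = 0.0437) in WT cells. DUSP14, a phosphatase gene that acts on MAP kinases, RHOC, a small GTPase gene, and PLCL2, a phospholipase C-like gene without activity, were called in no comparison. DUSP14 ranged from 19.6 to 77.5 CPM, RHOC from 196 to 637 CPM and PLCL2 from 4.37 to 12.4 CPM. The replicate block called DUSP14 higher in both genotypes, at 0.43 in W329G and 0.69 in WT cells, and RHOC higher in WT cells, at 0.32.

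**Figure D3:**
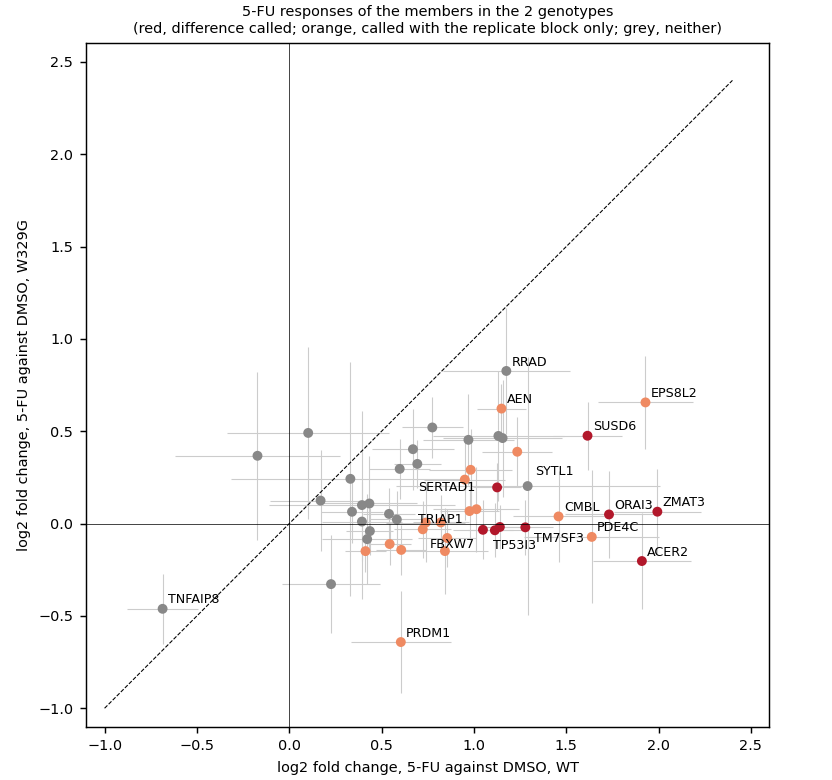
Log2 fold change with 5-FU of each member in W329G cells (vertical axis) and WT cells (horizontal axis), with standard errors, against the line of equal response. The members spread from -0.64 to 0.83 in W329G cells and from -0.69 to 1.99 in WT cells, and 47 of 50 lie below the line.

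Of 8 genes of membrane traffic, transport and secretion, 5 rose in WT cells, and the median log2 fold change was 0.09 in W329G cells and 0.69 in WT cells. ORAI3 (chromosome 16, 30949066 to 30956461), which encodes a store-operated calcium channel subunit, had a response called lower in W329G cells. ORAI3 had 3.95, 3.94, 6.45 and 4.48 CPM in W329G cells under 5-FU, against 4.44, 3.52, 5.88 and 4.19 CPM under DMSO. In WT cells ORAI3 had 12.6, 9.46, 14.2 and 13.4 CPM under 5-FU, against 2.96, 2.87, 6.51 and 2.80 CPM under DMSO. Replicate 3 of the WT DMSO group stood above the other 3 and still below every WT 5-FU library. The response was 0.05 ± 0.24 (SE, adjusted p = 0.964) in W329G cells and 1.73 ± 0.24 (SE, adjusted p = 0.000308) in WT cells, a 3.32-fold rise. The difference was -1.68 ± 0.33 (SE, adjusted p = 0.0189), being -1.94 in experiment 1 alone and -1.46 in experiment 2 alone.

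SLC12A4 encodes a potassium-chloride cotransporter and TSKU a secreted proteoglycan. SLC12A4 had 64.4, 87.3, 103 and 67.9 CPM in W329G cells under 5-FU, against 46.6, 62.9, 65.7 and 49.1 CPM under DMSO. In WT cells SLC12A4 had 134, 98.6, 109.6 and 125 CPM under 5-FU, against 64.6, 60.7, 83.3 and 65.6 CPM under DMSO. All 8 pairs of SLC12A4 were higher under 5-FU. Its response was 0.52 ± 0.17 (SE, adjusted p = 0.171) in W329G cells, where the replicate block called it at 0.51, and 0.77 ± 0.17 (SE, adjusted p = 0.00807) in WT cells. TSKU had 65.6, 57.3, 49.2 and 47.1 CPM in W329G cells under 5-FU, against 60.1, 74.5, 50.5 and 35.5 CPM under DMSO. In WT cells TSKU had 129.6, 111, 66.2 and 64.2 CPM under 5-FU, against 71.2, 76.5, 57.2 and 38.2 CPM under DMSO. TSKU had a response of 0.02 ± 0.15 (SE, adjusted p = 0.977) in W329G cells and 0.58 ± 0.15 (SE, adjusted p = 0.0252) in WT cells. BLOC1S2, a gene of lysosome-related organelle formation, and MICALL1, a gene of endosome recycling, rose in WT cells. BLOC1S2 had 0.08 in W329G cells and 1.01 ± 0.23 (SE, adjusted p = 0.0121) in WT cells, and the replicate block called the difference, at -0.95. MICALL1 had 0.30 in W329G cells and 0.60 ± 0.16 (SE, adjusted p = 0.0328) in WT cells.

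CPE (chromosome 4, 165361194 to 165498320), which encodes carboxypeptidase E of prohormone processing, was the member called between the genotypes under DMSO. That call was lost in other fits, as given below. CPE had 99.7, 82.1, 54.6 and 48.3 CPM in W329G cells under 5-FU, against 117, 87.6, 74.2 and 70.8 CPM under DMSO. In WT cells CPE had 54.2, 87.2, 54.4 and 27.3 CPM under 5-FU, against 34.1, 65.1, 56.05 and 28.1 CPM under DMSO. Under DMSO every W329G library was above every WT library, as for 1.59% of all genes, and under 5-FU the genotypes overlapped. The response was -0.33 ± 0.26 (SE, adjusted p = 0.649) in W329G cells and 0.23 ± 0.27 (SE, adjusted p = 0.696) in WT cells. SYTL1, a gene of vesicle docking, and VWCE, a secreted protein gene, were called in no comparison. SYTL1 ranged from 1.09 to 17.3 CPM and was called higher in WT cells by the replicate block, at 1.28, and VWCE ranged from 0.587 to 4.73 CPM.

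Of the 4 immune recognition genes, SUSD6, MR1 and TLR3 rose in WT cells. The median log2 fold change of the 4 genes was 0.47 in W329G cells, with a range of 0.29 to 0.49, and 1.07 in WT cells. With the replicate block 2 of the 4 were called higher in W329G cells, where 5.14% of all genes were. SUSD6 (chromosome 14, 69611596 to 69715142) encodes a sushi domain membrane protein linked to MHC class I turnover. SUSD6 had 23.9, 26.7, 25.1 and 20.95 CPM in W329G cells under 5-FU, against 16.5, 17.2, 21.6 and 14.4 CPM under DMSO. In WT cells SUSD6 had 56.02, 50.7, 69.6 and 39.7 CPM under 5-FU, against 15.97, 15.8, 23.6 and 15.2 CPM under DMSO. All 8 pairs were higher under 5-FU, the WT pairs by more, and the WT 5-FU libraries lay above all others. The response was 0.48 ± 0.18 (SE, adjusted p = 0.272) in W329G cells, where the replicate block called it at 0.48, and 1.62 ± 0.19 (SE, adjusted p = 7.38e-05) in WT cells. The difference was -1.14 ± 0.26 (SE, adjusted p = 0.0447), being -1.17 in experiment 1 alone and -1.15 in experiment 2 alone.

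MR1 encodes a relative of MHC class I that presents vitamin B metabolites to T cells. MR1 had 8.02, 12.6, 7.39 and 5.52 CPM in W329G cells under 5-FU, against 6.48, 10.2, 6.20 and 4.42 CPM under DMSO. In WT cells MR1 had 14.3, 18.3, 11.1 and 8.69 CPM under 5-FU, against 5.45, 9.60, 5.15 and 5.78 CPM under DMSO. Replicate 2 of the WT DMSO group stood above the other 3. The response was 0.29 ± 0.22 (SE, adjusted p = 0.626) in W329G cells and 0.98 ± 0.22 (SE, adjusted p = 0.0116) in WT cells, and the replicate block called the difference of -0.69 ± 0.31 (SE, adjusted p = 0.504), at -0.70. TLR3, an endosomal receptor gene for RNA duplexes, had a response of 0.46 ± 0.32 (SE, adjusted p = 0.581) in W329G cells and 1.16 ± 0.32 (SE, adjusted p = 0.0356) in WT cells. ICOSLG, the gene of a T cell costimulatory ligand, was listed at 0.0838 to 0.217 CPM in experiment 1 and 8.35 to 28.2 CPM in experiment 2. It was called in no comparison, and with the replicate block it was called higher in W329G cells, at 0.55.

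The genotypes were then set against each other within a treatment, the comparison that the series design names, on counts summed per numbered line over both experiments. Under 5-FU 26 of the 51 members were lower in W329G cells, with 7.11% of 17478 genes called lower and 7.27% higher. The members' median log2 fold change was -0.63, against -0.01 for all genes. With the line numbers of experiment 2 exchanged, 8 members were called lower, where 0.688% of all genes were. All 8 were among the 26, namely ACER2, EPS8L2, FBXW7, RAP2B, SERTAD1, TM7SF3, TP53I3 and ZMAT3. In either direction 14.4% of all genes were called by number and 1.27% with numbers exchanged, so the p-values depend on the numbering. Without the libraries numbered W329G cells 1 the count was 9, with 1.0% of all genes called lower, and without those numbered W329G cells 2 it was 5, with 0.613% called lower. ACER2, EPS8L2, PRDM1, TM7SF3 and ZMAT3 kept the call whichever number of either genotype was left out, which was not counted for all genes. Since the numbers ran the opposite way in the 2 experiments, such a fit leaves out a number and not necessarily a line. In single libraries, 20 of 50 members had every W329G library under 5-FU below every WT library under 5-FU, where 5.08% of all genes did.

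ACER2 differed most between the genotypes under 5-FU, with a log2 fold change of -1.98 ± 0.23 (SE, adjusted p = 0.00125) by number and -1.999 ± 0.29 (SE, adjusted p = 0.0352) with numbers exchanged. EPS8L2 followed with -1.92 ± 0.20 (SE, adjusted p = 0.00085) by number and -1.873 ± 0.32 (SE, adjusted p = 0.0477) exchanged. PRDM1 had -1.80 ± 0.24 (SE, adjusted p = 0.002) and was not called with numbers exchanged. ZMAT3 had -1.75 ± 0.16 (SE, adjusted p = 0.000561) and TM7SF3 -1.42 ± 0.11 (SE, adjusted p = 0.000287), both also called with numbers exchanged. CMBL had -1.55 ± 0.16 (SE, adjusted p = 0.0008) and ORAI3 -1.43 ± 0.30 (SE, adjusted p = 0.0152), called by number alone. In the other called members the fold change lay between -1.19, in SUSD6, and -0.45, in IER5. Of the 26 members, 24 were also among those called in the WT response, which shares the WT 5-FU libraries with this comparison, and CDIP1 and PRDM1 were not.

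Under DMSO CPE was called higher in W329G cells, with 0.87 ± 0.15 (SE, adjusted p = 0.0357), where 0.452% of all genes were called higher and 0.973% lower. CPE lost that call with the line numbers of experiment 2 exchanged, and without W329G cells 1, W329G cells 2 or WT cells 1. The members' median log2 fold change was 0.03, against -0.0018 for all genes. AEN had -0.47 ± 0.12 under DMSO and PRDM1 -0.73 ± 0.23, which were not called, beside -0.94 ± 0.12 and -1.80 ± 0.24 under 5-FU.

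**Figure D4:**
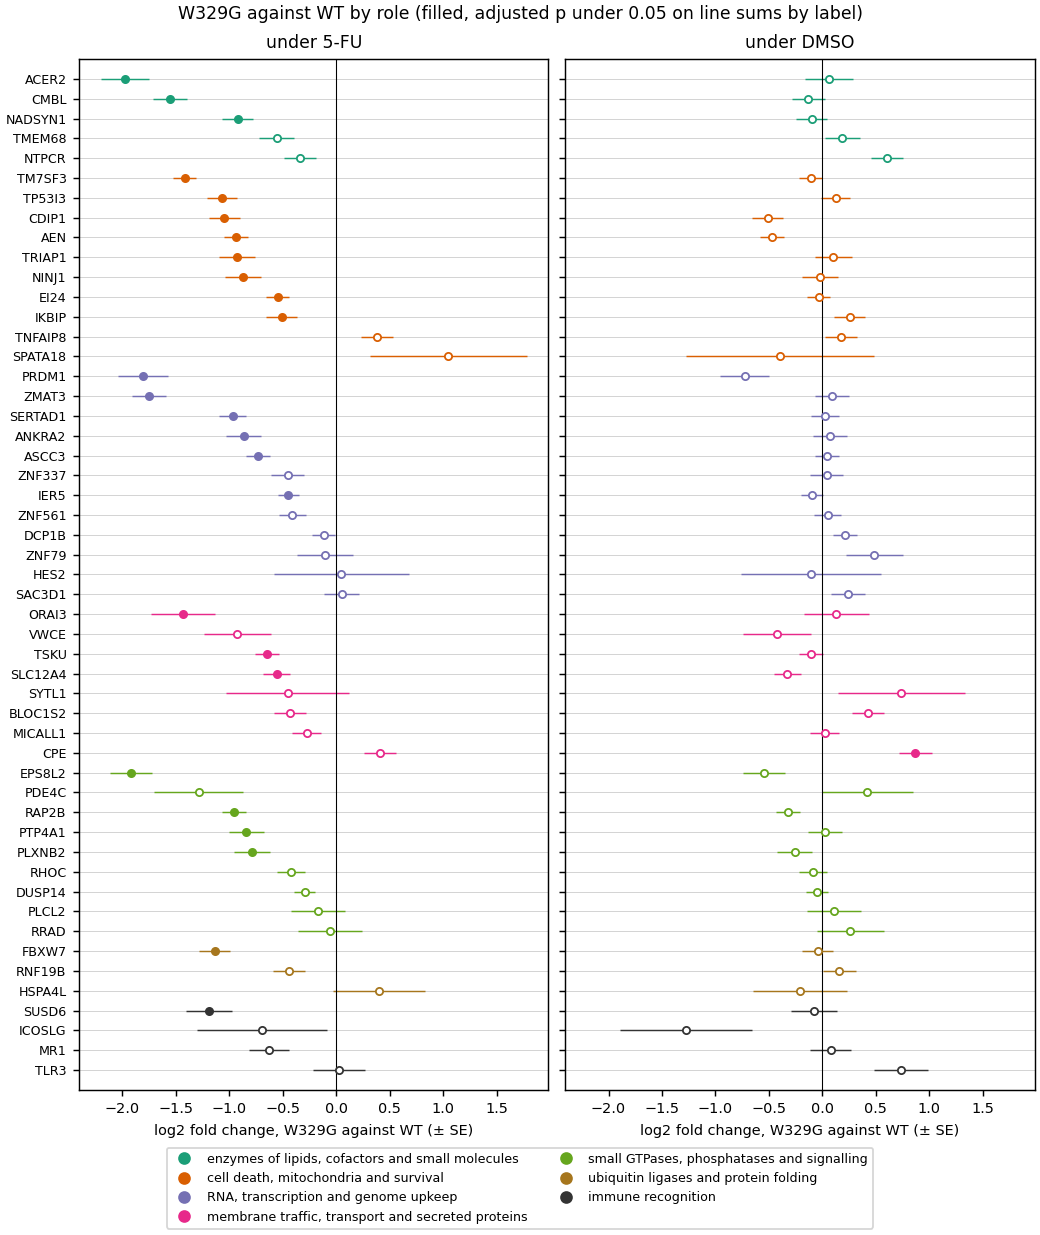
Log2 fold change of W329G against WT cells with its standard error for each of 51 members, grouped by role (colour), under 5-FU on the left and under DMSO on the right. Filled points have an adjusted p under 0.05 on line sums by number. With the numbers of experiment 2 exchanged, 8 members stay called under 5-FU and 0 under DMSO. Under 5-FU the members' median is -0.63, against -0.01 for all genes, and under DMSO the points lie around 0 with CPE as the filled one.

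Levels between members can be set against each other only per length, which experiment 1 allows. In WT cells under 5-FU the mean of the 2 libraries ran from 0.0104 RPKM (CPM per kilobase of exon) for ICOSLG to 127 RPKM for RHOC, with 102 for PLXNB2, 91.9 for TM7SF3 and 69.3 for TP53I3. The place of ICOSLG holds for experiment 1 alone, since its CPM in experiment 2 was 126 times that level at the median of libraries. ACER2, ORAI3 and FBXW7, whose responses were called lower in W329G cells, stood at 3.93, 4.17 and 5.06 RPKM. Across the 50 tested members the log2 responses in W329G and WT cells had a Pearson r of 0.27, with both sets of libraries sharing the gene and its counting depth. The 19 members with a WT log2 fold change of at least 1 had a W329G median of 0.08, against 0.02 for all tested genes. Of the 35 members that rose in WT cells, 22 had a W329G log2 fold change above 0. In single W329G pairs 49.9% to 51.4% of all tested genes lay above 0. That share is of pairs and the count is of fitted values, so they are not the same measure. Whether part of the response was kept in W329G cells was not tested.

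A list of 32 better known p53 targets, chosen from general knowledge with earlier results of these data known, gives the scale of the pathway. In W329G cells 1 of the 32 fell, where 0.59% of all genes did, and the median log2 fold change was 0.18. With the replicate block 6 were called higher and 1 lower there, with 5.14% and 5.79% of all genes. In WT cells 23 rose, where 3.56% of all genes did, with a median of 1.36. The response was called lower in W329G cells for 15 of the 32, where 0.511% of all genes were. With the replicate block it was called lower for 23, where 2.54% of all genes were. TP53INP1, an autophagy and stress gene, had a log2 response of -0.12 ± 0.14 in W329G cells and 2.46 ± 0.15 in WT cells (SE). CDKN1A had 0.70 ± 0.16 in W329G cells, where the replicate block called it at 0.69, and 2.42 ± 0.17 in WT cells. BTG2, an antiproliferative gene, had 0.25 ± 0.17 in W329G cells and 2.21 ± 0.18 in WT cells. Under 5-FU 25 of the 32 were lower in W329G cells, where 7.11% of all genes were, with a median of -1.09.

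Some members share exons with neighbours, and the sources used here do not say whether counting used strand. UTP15, on the other strand of ANKRA2 over 244 exonic bases, had 3.91 times its counts in experiment 1, and TGS1, beside TMEM68, 1.90 times. ZNF337 shares 73.8% of its exonic bases with its antisense gene and ORAI3 52.9% with an unnamed gene of the same strand, which had 0.272 and 0.105 times their counts. ZNF337 was at 11.5 times and ICOSLG at 126 times its experiment 1 level in experiment 2 at the median of libraries, and the part of counting rules in this was not tested. The reads come from bulk cultures, so a lower level in every cell and fewer cells expressing a gene cannot be told apart.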

How the data were processed

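The labels' protocols name an RNeasy extraction, selection of poly-A RNA and the TruSeq preparation. Raw counts per gene were deposited by the authors as 16 tables. Per the file headers, tables of experiment 1 list Ensembl genes with exon coordinates and those of experiment 2 list gene symbols. The submitters' processing notes name hg19, while the coordinates of experiment 1 are those of GRCh38, since 96.1% of the 56898 genes also found in GENCODE release 29 start and end at the same bases there. Gene coordinates printed come from the experiment 1 tables, and sequences carry RefSeq's GRCh38.p14 coordinates. Which aligner and counter were run, and whether strand was used, is not given in the sources used here. All of the 26 values with at least 7 digits in experiment 2 end in 0, so the largest deposited counts appear rounded.

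Experiments were joined by gene symbol, 28443 genes directly and 242 through an older symbol, which covered 97.9% to 98.9% of each library's counts, and all 51 members were matched directly. The tests on counts were run in edgeR 4.0.16 under R 4.3.3, with its quasi-likelihood F test after TMM scaling and filterByExpr, and p-values were adjusted by Benjamini-Hochberg over all genes tested, with 0.05 as the threshold. A single model of the 16 libraries, with experiment as a covariate, gave both 5-FU responses and the difference between them, and the genotype comparisons on 8 sums per numbered line and treatment. CPM values use TMM-scaled library sizes, pair values are log2 CPM with a prior count of 2, and a standard error is the size of the log2 fold change over the square root of F. The scripts were tested on simulated data. The libraries that share a group and an experiment were not copies of each other, with a chi-square of 63.6 to 195 for each degree of freedom. No source says that replicates were grown separately, and the p-values speak only of the spread among these libraries, and depth is ample for all but the lowest members.

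Members, roles and the list of 32 better known targets were chosen with earlier results of these data known. Every library's value is printed for members called in the difference, the W329G response or a genotype comparison, and for the 2 of each role with the smallest p in the WT response, which gave 29. Members called in the WT response only are given by fold change and the rest by range, with MDM2, CDKN1A and the 3 better known targets of smallest p besides. TNFAIP8 and PDE4C are described further after their values were seen. Within an experiment the labels give the same cell numbers under both treatments, and differences between the numbers correlated at 0.69 to 0.81 between treatments across genes. The replicate block therefore pairs the libraries for the 5-FU responses, though not between the genotypes. The alternatives were scaling or testing by DESeq2 1.42.0, keeping genes of low counts, the block, each experiment alone, leaving out the experiment covariate, single libraries, exchanged line numbers, a minimum log2 fold change of 1 in size, and each pair or numbered line left out.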

Additional observations from a re-analysis of the deposited data

Results flagged for a closer look

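The 5-FU response differed between the genotypes by test for 9 members, each lower in W329G than in WT cells. The W329G minus WT differences of log2 responses were -2.11 for ACER2, -1.93 for ZMAT3, -1.68 for ORAI3, -1.30 for TM7SF3, -1.16 for TP53I3, -1.15 for FBXW7, -1.14 for SUSD6, -1.08 for TRIAP1 and -0.93 for SERTAD1.

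In 10 of 194 groups of 4 libraries, 1 library stood far from the other 3, with a gap to its neighbour that passed Dixon's 95% limit for 4 values. Chance gives this in about 1 of 20 groups. Among W329G libraries this was ACER2 under 5-FU, where replicate 3 was at 1.11 CPM and the next at 1.82. In the WT 5-FU group it was TM7SF3 in replicate 1, at 432 CPM with the next at 290.1, and SYTL1 in replicate 3, at 17.3 CPM with the next at 3.95. SYTL1 was also high in replicate 3 of the WT DMSO group, at 5.68 CPM with the next at 1.77. ORAI3 and SUSD6 were high in that same library, at 6.51 and 23.6 CPM, with the next at 2.96 and 15.97. In WT DMSO replicate 2, CMBL was at 24.7 CPM and MR1 at 9.60 CPM, with the next at 14.3 and 5.78. In WT DMSO replicate 4, NINJ1 was low at 23.4 CPM, with the next at 39.0, and ZNF561 high at 27.5 CPM, with the next at 19.9.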

How the results depend on the processing

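In every fit run the members kept their direction for each called value. Shares in brackets are of all genes called in the same fit. The response in W329G cells (1 call, 0.785%) gave 9 with the replicate block (10.9%), which pairs the libraries of a line. It gave 0 with no filter, with no experiment term, in either experiment alone and at a log2 fold change of at least 1. With any pair left out it gave 0, and DESeq2 gave 1 (3.48%). Under an unadjusted p of 0.05 in edgeR, no filter gave 9 of 51 members, beside 2212 of 24075 genes. No experiment term gave 5 of 50, beside 906 of 16430. Experiment 1 gave 4 of 49, beside 1106 of 15978, and experiment 2 gave 1 of 50, beside 879 of 15969. The response in WT cells (36 calls, 8.78%) gave 13 in experiment 1 alone (1.28%), 15 with no experiment term (2.44%) and 17 at a log2 fold change of at least 1 (2.51%). With a pair left out it gave 19 to 26 (3.99% to 7.12%). In experiment 2 alone it gave 0, and unadjusted 31 of 50 members, beside 1750 of 15969 genes. The difference of responses (9 calls, 1.21%) gave 27 with the replicate block (6.15%), 19 with DESeq2 (2.88%) and 1 with no experiment term (0.128%). With a pair left out it gave 3 to 11 (0.524% to 1.24%). In either experiment alone it gave 0. Unadjusted, experiment 1 gave 24 of 49 members, beside 819 of 15978 genes. Experiment 2 gave 17 of 50, beside 638 of 15969.

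W329G against WT under 5-FU (26 calls, 14.4%) gave 8 with line numbers of experiment 2 exchanged (1.27%), 17 and 1 in experiments 1 and 2 alone (2.63% and 0.188%), 11 at a log2 fold change of at least 1 (5.17%), and 5 to 33 with a numbered line left out (0.998% to 16.5%). Under DMSO (1 call, 1.42%) it gave 4 with no filter (3.83%), 5 with DESeq2 (7.35%) and 0 to 9 with a numbered line left out (0.00557% to 12.8%). It gave 0 with numbers exchanged, with single libraries, in either experiment alone and at a log2 fold change of at least 1. Unadjusted, numbers exchanged gave 2 of 51 members, beside 1357 of 17453 genes. Single libraries gave 8 of 50, beside 2475 of 16430. Experiment 1 gave 2 of 49, beside 810 of 15978, and experiment 2 gave 1 of 50, beside 1321 of 15969. Beside these shares, the DMSO counts are not read as a result about the members. Between genotypes a replicate block joins W329G and WT libraries that share a number and no line, and it gave 32 under 5-FU (20.3%) and 3 under DMSO (1 higher and 2 lower, 3.36%). Fits on 1 experiment rest on 2 libraries a group. Line numbers that ran opposite ways between experiments, bulk cultures, 2 lines a genotype and counting that may differ between vendors limit all values. Members near 0.1 CPM carry too few counts to show a change.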
